A study of Mus musculus with 15 samples.

Results

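Induced extraembryonic endoderm stem (iXEN) cell lines made with 4 retroviral factors were set against lines made with 3 lentiviral factors, 10 of the 15 libraries of the study. The retroviral OSKM group held 5 lines, each 1 clone grown from a single cell that was positive for an Oct4-EGFP reporter after mouse embryonic fibroblasts received Oct4, Sox2, Klf4 and Myc from retroviral vectors. The lentiviral SKM group held 5 stable lines past passage 11, each from its own fibroblast preparation, which received Sox2, Klf4 and Myc from lentiviral vectors and no Oct4. Both groups carried the genotype label CD1, an outbred mouse stock, and levels are also given for a further 5 lines made with lentiviral Oct4, Sox2, Klf4 and Myc (lentiviral OSKM). The libraries were chosen by their column names in the count tables and joined on Ensembl gene identifier. The absence of Oct4, the vector, the single-cell cloning and the library series all divide the 10 libraries in the same way, so their effects cannot be told apart. Selection for the Oct4-EGFP reporter is described for the retroviral clones only, and a passage is given for the lentiviral lines only. Reporter selection and time in culture may therefore be part of the same split. The labels do not say whether the retroviral clones came from separate fibroblast preparations, so the p-values measure the spread between clones and lines as they were sampled. The sample titles of the lentiviral SKM lines begin with IPS and their cell type field reads induced pluripotent, and the treatment field of the retroviral lines names embryonic stem cells as the start. The description of the series calls all of them iXEN and gives fibroblasts as their origin, and that description is followed here.

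XEN cells grow in culture as the equivalent of primitive endoderm, which in the embryo gives rise to the parietal and visceral endoderm of the yolk sacs. Gata6, Gata4, Sox17 and Sox7 encode the transcription factors that set up and hold this identity, and parietal endoderm secretes a thick basement membrane of laminin and type IV collagen. In reprogramming, Oct4 (gene Pou5f1) and Sox2 drive cells towards pluripotency, Klf4 and Myc assist them, and vector copies of the factors are known to be silenced to varying degrees in established lines.

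The retroviral OSKM libraries held 34916933 to 46995817 counts in genes and the lentiviral SKM libraries 60998360 to 75376275. Levels are given in CPM, counts scaled to a common library size. A gene with no count could have had up to 3 counts, which is 0.0697 to 0.0848 CPM in retroviral OSKM and 0.0386 to 0.0496 CPM in lentiviral SKM libraries, for counting error only. The groups also differed without overlap in the share of reads that did not align uniquely (4.93% to 7.35% in retroviral OSKM and 3.95% to 4.81% in lentiviral SKM libraries) and in the share that did not align (3.55% to 6.91% in retroviral OSKM and 7.64% to 12.1% in lentiviral SKM libraries). On the first principal component, 24.9% of the variance, the retroviral lines ranged from -83.7 to 15.8 and the lentiviral SKM lines from -10.1 to 53.6. Retroviral OSKM replicates 1 and 3 stood apart on that component, and replicate 5 on the third component, at -60.2 where the other 9 lines ranged from -35.2 to 39.7. Replicate 3 had 107 CPM of Gata6 and 2.60 CPM of Foxa2, and replicate 1 had 55.3 CPM of the type IV collagen gene Col4a1, so calls are also given without both of them, and without replicate 5 alone.

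Few genes passed the test. With Benjamini-Hochberg adjustment, the quasi-likelihood test of edgeR called 43 of 15370 genes at an adjusted p under 0.05, or 0.28%. Of these, 16 were higher in retroviral OSKM lines (0.104%) and 27 lower (0.176%), with a smallest adjusted p of 0.00238. Levels were without overlap between the groups for 642 genes (4.18%), and the 43 called genes were all among them. Without adjustment, 2360 genes (15.4%) had a p under 0.05, 1260 with a positive and 1100 with a negative fold change. Over all genes tested, 8294 fold changes were positive (54.0%) and 7076 negative. The median log2 fold change over all genes, retroviral OSKM over lentiviral SKM here and throughout, was 0.05, and the 95% interval of a gene reached a median of 0.72 log2 units to either side. DESeq2 called 617 of 19663 genes (3.14%), among them all 43. The edgeR count depended on single libraries. It was 62 without retroviral OSKM replicate 5, 40 without replicate 3 and 43 without lentiviral SKM replicate 1. It was 23, 20 and 25 without retroviral OSKM replicates 1, 2 and 4, and 19, 16, 13 and 20 without lentiviral SKM replicates 2, 3, 4 and 5. Of the 43 genes, 13 were called in each of the 10 fits that left out 1 library, and 9 without retroviral OSKM replicates 1 and 3 together.

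**Figure D1:**
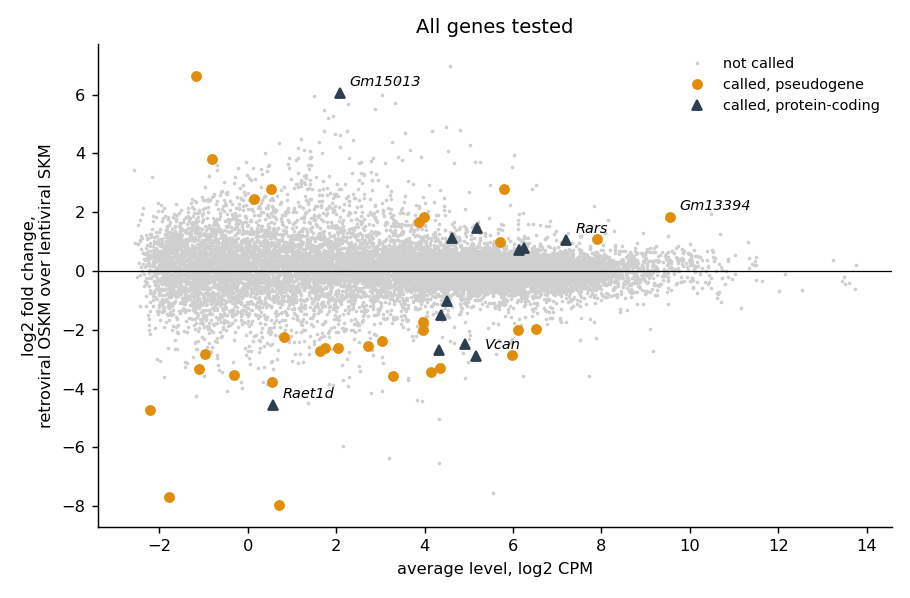
Log2 fold change of retroviral OSKM over lentiviral SKM lines (vertical) against average level in log2 CPM (horizontal) for the 15370 genes tested, with the 31 called pseudogenes as orange circles and the 12 called protein-coding genes as dark triangles. Most called genes are pseudogenes, and the 2 lowest points, Gm29667 and Gm8420, are listed at 0 in 4 and 5 of the 5 retroviral libraries, so that their fitted values are no bound.

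The called genes fell into a large set of pseudogenes and gene copies, and a small set of 8 protein-coding genes with no near-identical copy in the annotation. In the small set Nr4a3, Bgn, Vcan and Capn15 fell and Rars, Gpatch4, Utp3 and Stk3 rose in retroviral OSKM lines. For protein-coding genes as a whole, 12 of 12886 tested were called, 6 in each direction. When protein-coding genes alone were tested, a choice made after the pseudogenes were seen, edgeR called 4 of 12886 (0.031%), namely Gm15013, Gm10282, Nr4a3 and Bgn.

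Nr4a3 encodes an orphan nuclear receptor of the Nr4a family, whose genes are known for rapid induction by external signals (chr4:48045153-48086447, GRCm38, plus strand). It was at 5.33, 5.03, 2.36, 7.18 and 7.16 CPM in retroviral OSKM lines, against 32.7, 32.9, 55.5, 27.9 and 26.3 CPM in lentiviral SKM lines. Every retroviral line was thus several times below every lentiviral SKM line. Its log2 fold change was -2.68 (SE 0.34, adjusted p = 0.00991 by edgeR's quasi-likelihood test), and it was called in each of the 10 fits that left out 1 library and without retroviral OSKM replicates 1 and 3. The lentiviral OSKM lines divided on this gene, with 30.8, 48.1 and 50.6 CPM in replicates 1 to 3 and 9.69 and 7.48 CPM in replicates 4 and 5.

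A pair of extracellular proteoglycan genes was lower in retroviral OSKM lines. Bgn encodes biglycan, a small leucine-rich proteoglycan that binds collagen (chrX:73483602-73495933, plus strand). It was at 8.82, 5.35, 7.83, 9.25 and 14.4 CPM in retroviral OSKM lines, against 84.3, 53.6, 28.8, 45.0 and 43.9 CPM in lentiviral SKM lines. The groups were well apart, with the largest spread among the lentiviral SKM lines. Its log2 fold change was -2.48 (SE 0.33, adjusted p = 0.0130 by edgeR), and the call held in each of the 10 fits without 1 library but not without retroviral OSKM replicates 1 and 3 (adjusted p = 0.109). In lentiviral OSKM lines Bgn ran from 4.77 to 288 CPM, so those lines covered both ranges.

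Vcan encodes versican, a large proteoglycan of the extracellular matrix that carries chondroitin sulphate chains (chr13:89655312-89742509, minus strand). It was at 4.30, 12.2, 9.17, 9.95 and 6.67 CPM in retroviral OSKM lines, against 40.1, 59.8, 96.0, 97.0 and 24.7 CPM in lentiviral SKM lines. The groups did not overlap, and the lowest lentiviral SKM line, replicate 5, was nearest to the retroviral lines. The log2 fold change was -2.90 (SE 0.42, adjusted p = 0.0207 by edgeR). The call was lost without retroviral OSKM replicate 4 or lentiviral SKM replicate 2, 3 or 4 (highest adjusted p = 0.0630), and without retroviral OSKM replicates 1 and 3 together (adjusted p = 0.1095). It was also above the threshold with limma voom (adjusted p = 0.0548). Of the 20 tested genes of chondroitin sulphate synthesis and its core proteins, Vcan was the 1 called, beside 0.28% of all genes. In this list 10 had a log2 fold change above 0 and 10 below, and the median was -0.10. An unadjusted p under 0.05 was found for 30% of the list, 2 higher and 4 lower, beside 15.4% of all genes. Among the others, Ust, which adds a sulphate group to uronic acid in the chains, averaged 41.4 CPM in retroviral OSKM lines, against 14.8 CPM in lentiviral SKM lines. Chpf2, the gene of a chondroitin polymerising factor, averaged 16.6 CPM in retroviral OSKM lines, against 25.7 CPM in lentiviral SKM lines, and neither was called.

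Fibroblasts, the starting cells, express both proteoglycan genes, and fewer cells of a type cannot be told apart from less RNA per cell in such bulk libraries. The summed level of the 22 fibroblast markers was 564 to 1834 CPM in retroviral OSKM lines and 750 to 1755 CPM in lentiviral SKM lines, with 2 of the markers at 0 in all retroviral lines and none at 0 in all lentiviral SKM lines. The median log2(CPM + 0.5) of the markers was highest in lentiviral SKM replicate 1, at 3.86, which also had the most Bgn, and in retroviral OSKM replicate 1, at 2.58, which had the least Vcan. Vcan, Bgn and Nr4a3 were all still called without lentiviral SKM replicate 1. Lentiviral SKM replicate 2 was also high, with a marker median of 2.43 and 16 of the 22 markers above 1 CPM. Without that line Bgn and Nr4a3 were still called and Vcan was not. Whether fibroblast content accounts for these levels was not tested. In lentiviral OSKM replicate 5, which had 288 CPM of Bgn, the marker median was 4.48.

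Capn15, which encodes a member of the calpain protease family (chr17:25958364-25985796, minus strand), was at 15.2, 15.5, 13.4, 13.1 and 17.9 CPM in retroviral OSKM lines, against 34.5, 23.2, 28.9, 35.0 and 32.0 CPM in lentiviral SKM lines. The groups did not overlap (log2 fold change -1.02, SE 0.18, adjusted p = 0.0494 by edgeR). Of the fits without 1 library, only that without retroviral OSKM replicate 5 called it (highest adjusted p = 0.161).

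The 4 genes that rose in retroviral OSKM lines did so by about 1 log2 unit or less. Their spread within a group was small, as a call at so small a change requires. Rars encodes the cytosolic arginyl-tRNA synthetase, which charges tRNA with arginine for translation (chr11:35808381-35834506, minus strand). It was at 259, 181, 208, 162 and 187 CPM in retroviral OSKM lines, against 101, 102, 115, 86.9 and 80.5 CPM in lentiviral SKM lines. The lowest retroviral line was above the highest lentiviral SKM line, and the log2 fold change was 1.05 (SE 0.17, adjusted p = 0.0303 by edgeR).

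Utp3 and Gpatch4 encode nucleolar proteins, the first a component of the complex that processes the small ribosomal subunit. Utp3 (chr5:88554462-88556090, plus strand) was at 101, 89.2, 89.3, 96.4 and 106 CPM in retroviral OSKM lines, against 51.4, 60.7, 61.1, 54.5 and 54.0 CPM in lentiviral SKM lines. Its groups were narrow and did not overlap (log2 fold change 0.79, SE 0.12, adjusted p = 0.0244 by edgeR). Gpatch4 (chr3:88043108-88055993, plus strand) was at 36.2, 34.0, 39.7, 23.5 and 34.3 CPM in retroviral OSKM lines, against 17.9, 16.4, 14.6, 15.9 and 13.4 CPM in lentiviral SKM lines. Retroviral OSKM replicate 4 was the lowest of its group and still above every lentiviral SKM line (log2 fold change 1.11, SE 0.18, adjusted p = 0.0357 by edgeR).

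Stk3 encodes the kinase Mst2, which acts at the top of the Hippo pathway (chr15:34875496-35178921, minus strand). It was at 78.6, 90.6, 84.3, 87.0 and 98.0 CPM in retroviral OSKM lines, against 48.2, 59.0, 49.5, 55.0 and 57.5 CPM in lentiviral SKM lines. The log2 fold change of 0.71 (SE 0.12, adjusted p = 0.0431 by edgeR) was the smallest among the called genes. Of the 22 Hippo pathway genes tested Stk3 was the 1 called, beside 0.28% of all genes, with 11 above 0, 11 below and a median of 0.00. Stk3 was called in 0 of the 10 fits without 1 library, Rars in those without retroviral OSKM replicate 4 or 5, Utp3 in those without retroviral OSKM replicate 3 or 5, and Gpatch4 in those without retroviral OSKM replicate 4 or lentiviral SKM replicate 1. The highest adjusted p in these fits was 0.140 for Stk3, 0.125 for Rars, 0.0957 for Utp3 and 0.130 for Gpatch4, and the 4 log2 fold changes stayed between 0.67 and 1.21. Without retroviral OSKM replicates 1 and 3, the adjusted p was 0.1095 for Utp3, 0.119 for Stk3, 0.129 for Rars and 0.189 for both Gpatch4 and Capn15.

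**Figure D2:**
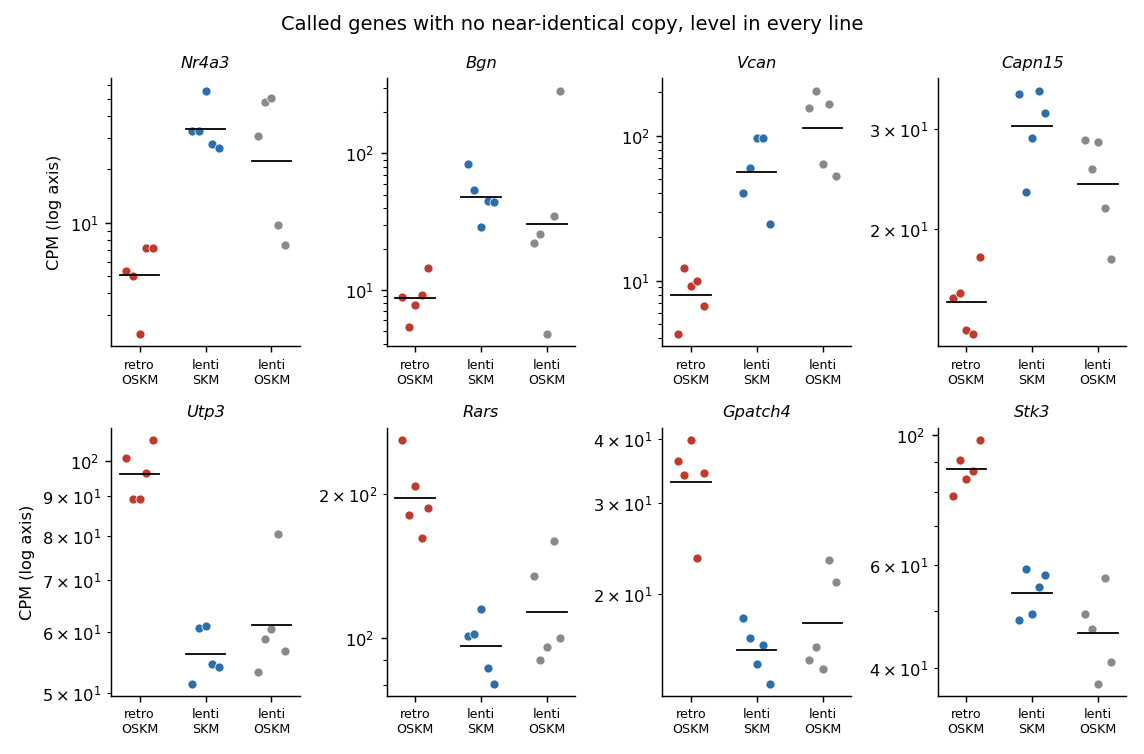
Level in CPM (log axis) of the 8 called genes without a near-identical copy in each retroviral OSKM, lentiviral SKM and lentiviral OSKM line; points are lines and bars are geometric means of 5 lines. The retroviral OSKM lines lie below all lentiviral SKM lines for Nr4a3, Bgn, Vcan and Capn15 and above them for Utp3, Rars, Gpatch4 and Stk3.

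Genes just outside the threshold were named after their values were seen and are given as levels. Carnmt1, which encodes a carnosine methyltransferase, averaged 39.9 ± 1.43 CPM in retroviral OSKM and 19.9 ± 4.84 CPM in lentiviral SKM lines (SD, n = 5 each). Rbm3, a cold-inducible RNA-binding protein gene, averaged 342 ± 52.5 CPM in retroviral OSKM lines, against 188 ± 21.2 CPM in lentiviral SKM lines. B4galt5, a galactosyltransferase gene of glycolipid synthesis, averaged 34.0 ± 6.06 CPM in retroviral OSKM lines, against 84.9 ± 25.4 CPM in lentiviral SKM lines. Each of these genes did not overlap between the groups and had an adjusted p of 0.0550 by edgeR.

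The larger set was made of copies. Processed pseudogenes are genomic copies of spliced transcripts, and a read from the transcript of the source gene can match its copies closely. Pseudogenes were 31 of the 43 called genes, 72.1% against 7.01% of the genes tested, with 10 higher and 21 lower in retroviral OSKM lines. Of the 1077 pseudogenes tested 2.88% were called, against 0.0931% of the protein-coding genes. A transcript at least 95% identical over at least 80% of the length was found for 29 of the 31 (93.5%), and for 882 of all 1077 (81.9%). Ribosomal protein genes were the source of 18 of the 31 (58.1%; 8 higher and 10 lower) and of 27.2% of the pseudogenes tested. Of the 12 called protein-coding genes, 4 also had a near-identical gene, so that copies made up 35 of the 43.

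The source genes of these copies were not called. None of the 24 source genes of the called pseudogenes was called by edgeR, while 7 had an unadjusted p under 0.05 and DESeq2 called 2. For 20 of the 24 the log2 fold change lay within 1 unit of 0. Identity between a called pseudogene and its source had a median of 98.9%, and the longest run of identical bases ranged from 87 to 857 bases with a median of 236. The sources used here do not say how reads that match both were counted, so the levels of copy and source are uncertain. With the lentiviral SKM libraries thinned to the retroviral depth edgeR called 42 genes, and 40 of the 43 were still among them. The part of the share of reads that did not align uniquely, which differed between the groups as given above, was not tested.

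To show how little separates a copy from its source, stretches of 120 bases of the coding sequence are printed for 4 called copies whose levels are given next, with the bases that differ between copy and source in capitals (GENCODE M21 transcripts, GRCm38, 5′ to 3′ on the transcript strand).
Rpsa-ps9: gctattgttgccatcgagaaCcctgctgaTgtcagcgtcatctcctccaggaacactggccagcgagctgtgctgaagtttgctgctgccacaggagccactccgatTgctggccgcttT
Rpsa: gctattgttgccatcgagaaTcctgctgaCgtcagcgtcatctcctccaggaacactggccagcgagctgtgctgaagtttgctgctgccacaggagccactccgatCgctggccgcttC
Gm4294: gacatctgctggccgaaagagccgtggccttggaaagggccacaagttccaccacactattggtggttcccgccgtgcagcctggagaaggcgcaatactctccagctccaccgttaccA
Rpl15: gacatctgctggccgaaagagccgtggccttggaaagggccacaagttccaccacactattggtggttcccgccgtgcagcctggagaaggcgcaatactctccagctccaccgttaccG
Rps19-ps6: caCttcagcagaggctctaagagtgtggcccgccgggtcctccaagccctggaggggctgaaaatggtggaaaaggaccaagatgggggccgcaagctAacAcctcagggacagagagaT
Rps19: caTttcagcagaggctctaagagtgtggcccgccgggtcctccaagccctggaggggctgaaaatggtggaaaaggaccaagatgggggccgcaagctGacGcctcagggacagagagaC
Gm15013: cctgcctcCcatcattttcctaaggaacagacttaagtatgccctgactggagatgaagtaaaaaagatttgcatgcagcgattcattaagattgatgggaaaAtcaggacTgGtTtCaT
Rps4x: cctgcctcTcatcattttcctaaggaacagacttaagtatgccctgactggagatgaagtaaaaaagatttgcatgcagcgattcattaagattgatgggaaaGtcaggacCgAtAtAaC
The windows hold 4 differences for Rpsa-ps9, 1 for Gm4294, 4 for Rps19-ps6 and 7 for Gm15013. Each was chosen as the coding stretch without gaps that had the most differences, so it is no measure of the whole alignment. Over its whole alignment Gm15013 had 25 mismatches in 804 aligned bases.

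Rpsa-ps9 and Rpsa-ps12 are copies of Rpsa, the gene of the ribosomal protein that also serves as a laminin receptor. Rpsa-ps9 (chr2:28477166-28478050, plus strand) was at 1.14, 2.13, 1.80, 1.499 and 0.999 CPM in retroviral OSKM lines, against 10.6, 19.9, 18.8, 21.7 and 19.6 CPM in lentiviral SKM lines. Rpsa-ps12 (chr4:149142497-149143388, minus strand) was at 2.25, 4.30, 1.85, 3.14 and 3.49 CPM in retroviral OSKM lines, against 22.2, 38.4, 47.1, 29.3 and 26.1 CPM in lentiviral SKM lines. Both copies were far lower in every retroviral line, with log2 fold changes of -3.57 and -3.43 (SE 0.32 each, adjusted p = 0.00238 each by edgeR). Rpsa itself averaged 2460 CPM in retroviral OSKM lines and 1706 CPM in lentiviral SKM lines, without a call (adjusted p = 0.275 by edgeR).

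Gm4294, a copy of the ribosomal protein gene Rpl15 that differs from it at 1 of 614 aligned bases, was at 11.6, 15.4, 20.9, 18.3 and 11.0 CPM in retroviral OSKM lines, against 62.7, 103, 186, 98.1 and 111 CPM in lentiviral SKM lines. Its log2 fold change was -2.84 (SE 0.30, adjusted p = 0.00373 by edgeR), and Rpl15 averaged 1391 CPM in retroviral OSKM lines, against 1012 CPM in lentiviral SKM lines. Gm8420, a further Rpl15 copy, had no count in any of the 5 retroviral libraries and 0.295 to 0.761 CPM in lentiviral SKM lines. Gm5619, a copy of the ribosomal protein gene Rpl7a, likewise fell to a mean of 3.78 ± 1.47 CPM in retroviral OSKM lines, against 37.5 ± 12.7 CPM in lentiviral SKM lines (SD, n = 5 each; log2 fold change -3.30, adjusted p = 0.00373 by edgeR).

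Copies also went the other way. Gm15013, annotated as protein-coding on the X chromosome and 96.5% identical to the ribosomal protein gene Rps4x (chrX:139713681-139714481, minus strand), was at 6.36, 10.4, 8.51, 12.8 and 3.81 CPM in retroviral OSKM lines, against 0.0466, 0.148, 0.287, 0.0662 and 0.0771 CPM in lentiviral SKM lines. It was near the detection limit in every lentiviral line, the lentiviral OSKM lines included (0.0135 to 0.130 CPM). The fitted log2 fold change was 6.06 (SE 0.63, adjusted p = 0.00373 by edgeR), while Rps4x averaged 1150 CPM in retroviral OSKM and 993 CPM in lentiviral SKM lines.

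Rps19-ps6 (chr12:110898114-110898551, plus strand), a copy of the ribosomal protein gene Rps19, was at 155, 83.7, 108, 107 and 28.4 CPM in retroviral OSKM lines, against 11.3, 15.4, 16.4, 12.5 and 14.6 CPM in lentiviral SKM lines. Retroviral OSKM replicate 5 was nearest to the lentiviral SKM lines. The log2 fold change was 2.79 (SE 0.37, adjusted p = 0.0117 by edgeR, above 0.05 without lentiviral SKM replicate 4, at 0.0587, and without retroviral OSKM replicates 1 and 3), and Rps19 averaged 720 CPM in retroviral OSKM and 723 CPM in lentiviral SKM lines. Rpl3-ps2 (log2 fold change 1.85, SE 0.26) and Rpl14-ps1 (1.09, SE 0.19) also rose, with adjusted p = 0.0170 and 0.0494 by edgeR. Rpl3-ps2 was not called without retroviral OSKM replicate 4 or lentiviral SKM replicate 2, 3 or 4 (highest adjusted p = 0.0603), and Rpl14-ps1 was called in 1 of the 10 fits without 1 library, that without retroviral OSKM replicate 5 (highest adjusted p = 0.133). Neither was called without retroviral OSKM replicates 1 and 3. Gm10282, annotated as protein-coding and 99.3% identical to the chromatin protein gene Hmgn2, averaged 53.2 ± 11.6 CPM in retroviral OSKM and 19.7 ± 1.65 CPM in lentiviral SKM lines (SD, n = 5 each; log2 fold change 1.45, SE 0.18, adjusted p = 0.00991 by edgeR). Its source had the same sign without a call, with 153 CPM in retroviral OSKM and 91.8 CPM in lentiviral SKM lines.

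For 2 source genes, Gapdh and Rps2, copies were called in both directions. Gapdh encodes an abundant enzyme of glycolysis, and 5 of its copies were called, 1 higher and 4 lower. Gm13394 (chr2:28933610-28934609, minus strand), which differs from the Gapdh transcript at 1 of 1000 aligned bases, was at 818, 997, 2052, 1057 and 990 CPM in retroviral OSKM lines, against 188, 510, 359, 356 and 249 CPM in lentiviral SKM lines. The gene Gapdh was listed lower than this copy, at a mean of 103 CPM in retroviral OSKM and 104 CPM in lentiviral SKM lines. Gm13394 had a log2 fold change of 1.84 (SE 0.32, adjusted p = 0.0494 by edgeR) and was called in 0 of the 10 fits without 1 library (highest adjusted p = 0.152). Among the lower copies, Gm29667 had no count in 4 retroviral libraries and 0.0486 CPM in the other, against 1.99 to 4.52 CPM in lentiviral SKM lines.

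Raet1d encodes a ligand of the activating receptor NKG2D on natural killer cells and was 96.0% identical to its neighbour Raet1e, whose annotated span on chromosome 10 covers it. It was at 0.0833, 0.215, 0.122, 0.0566 and 0.0930 CPM in retroviral OSKM lines, against 1.04, 3.73, 1.09, 1.54 and 6.56 CPM in lentiviral SKM lines for a log2 fold change of -4.57 (SE 0.69, adjusted p = 0.0247 by edgeR). The retroviral values were near the level of 3 counts. Raet1e lay the other way, at 1.67, 4.06, 0.316, 12.1 and 3.46 CPM in retroviral OSKM lines, against 0.0777, 0.740, 0.799, 0.0331 and 0.694 CPM in lentiviral SKM lines, without a call. Ftl1-ps1, a copy of the ferritin light chain gene Ftl1, fell to 10.8 ± 3.32 CPM in retroviral OSKM lines, against 30.7 ± 6.66 CPM in lentiviral SKM lines (SD, n = 5 each; log2 fold change -1.49, adjusted p = 0.0388 by edgeR), with Ftl1 at 1528 CPM in retroviral OSKM and 1555 CPM in lentiviral SKM lines. Raet1d was called in 3 of the 10 fits without 1 library, those without lentiviral SKM replicate 1, 3 or 5, and Ftl1-ps1 in 1, that without retroviral OSKM replicate 3.

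**Figure D3:**
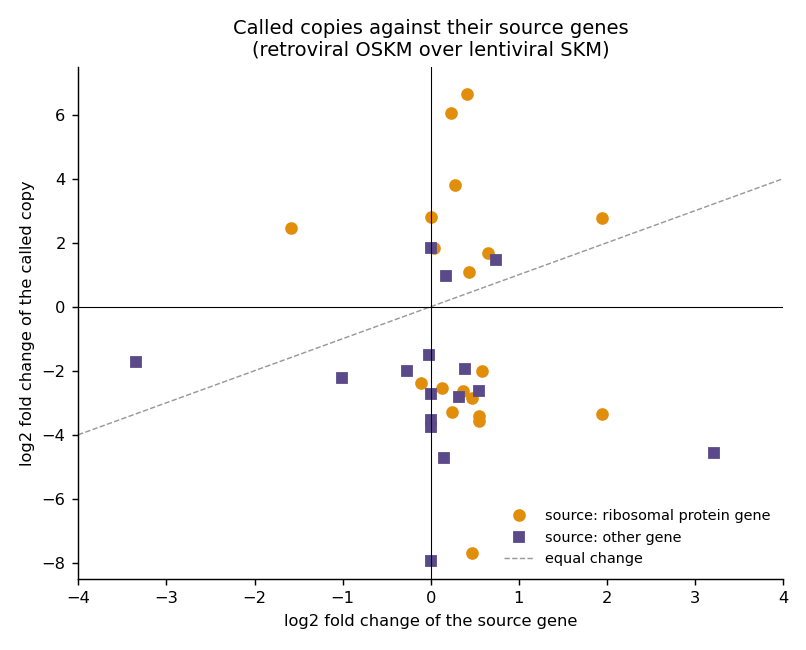
Log2 fold change of each called copy (vertical) against that of its source gene (horizontal), retroviral OSKM over lentiviral SKM, with copies of ribosomal protein genes as orange circles and copies of other genes as purple squares. Most sources lie within 1 log2 unit of 0 while their copies spread to both sides, away from the dashed line of equal change.

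The lentiviral OSKM lines, which carried all 4 factors but shared the vector type and library series of the SKM lines, showed on which side of each call they fell. Their mean log2 level was nearer to that of lentiviral SKM lines for 42 of the 43 called genes, and for all 12 protein-coding ones. The exception was Gstp-ps, a copy of a glutathione transferase gene, at 7.13 ± 1.83 CPM in retroviral OSKM and 24.0 ± 5.94 CPM in lentiviral SKM lines (SD, n = 5 each) and at 11.9 CPM on average in lentiviral OSKM lines. For 40 of the 43 genes the retroviral lines did not overlap any of the 10 lentiviral lines. The 43 genes were chosen on the retroviral OSKM and lentiviral SKM libraries, and all 43 were without overlap between those groups. The same counts over all genes tested were not made, so these counts are a description. What sets the retroviral lines apart was not tested.

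Of the reprogramming factors none was called by edgeR, and counts per gene do not separate endogenous from vector transcripts. Pou5f1, given by retrovirus to the first group and absent from the SKM vectors, was at 74.4, 0.673, 8.001, 0.113 and 21.9 CPM in retroviral OSKM lines, against 0, 0.115, 0.136, 0.381 and 0.540 CPM in lentiviral SKM lines. In 3 retroviral lines it was well above every lentiviral SKM line, in replicate 2 slightly above and in replicate 4 within their range. The log2 fold change was 6.48 (SE 1.64, 95% interval 2.86 to 10.09, adjusted p = 0.128 by edgeR), and DESeq2 called it (adjusted p = 0.000981). Sox2, a factor of both sets, was at 67.3, 0, 0.0243, 4.98 and 0.0697 CPM in retroviral OSKM lines and reached 0.0329 CPM in 1 lentiviral SKM line with 0 in the other 4. Too few libraries reached the level set by the filter's minimum count of 10, so Sox2 was not tested. Myc was at 258, 210, 157, 72.2 and 158 CPM in retroviral OSKM lines, against 55.9, 66.1, 80.2, 110 and 98.0 CPM in lentiviral SKM lines. Only retroviral OSKM replicate 4 lay within the lentiviral SKM range, and the log2 fold change was 1.07 (SE 0.31, 95% interval 0.39 to 1.76, adjusted p = 0.170 by edgeR). Klf4 varied widely in both groups, from 46.6 to 401 CPM in retroviral OSKM and from 150 to 436 CPM in lentiviral SKM lines (a difference of -0.26 log2 units, SE 0.50, adjusted p = 0.837 by edgeR).

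The labels were checked against lineage markers. XEN regulators were highly expressed in both groups: the median log2(CPM + 0.5) over the 12 genes was 7.64 ± 0.97 in retroviral OSKM and 8.48 ± 0.51 in lentiviral SKM lines (SD over lines, n = 5 each). For 26 pluripotency genes it was 0.08 ± 0.58 in retroviral OSKM and -0.31 ± 0.55 in lentiviral SKM lines. In both groups 9 to 13 of these 26 genes were above 1 CPM. Their summed level was 747 to 1780 CPM in retroviral OSKM and 906 to 1312 CPM in lentiviral SKM lines. For XEN regulators the sum was 1933 to 5214 CPM in retroviral OSKM and 4181 to 5061 CPM in lentiviral SKM lines. By these levels the lentiviral SKM lines carried the XEN profile in spite of their cell type field, while part of the pluripotency list was expressed. Gata4 ranged from 559 to 1360 CPM in retroviral OSKM and from 1028 to 1382 CPM in lentiviral SKM lines, and Sox17 from 321 to 665 CPM in retroviral OSKM and from 335 to 615 CPM in lentiviral SKM lines. Pdgfra, a receptor that marks primitive endoderm, was at 342 to 786 CPM in retroviral OSKM and 480 to 556 CPM in lentiviral SKM lines, and Nanog, a core pluripotency factor, reached 0.813 CPM in retroviral OSKM and 0.424 CPM in lentiviral SKM lines. Retroviral OSKM replicate 3 departed on several genes, with 107 CPM of Gata6 against 314 to 484 CPM in the other retroviral lines, 28.8 CPM of Sox7, 233 CPM of the endocytic adaptor gene Dab2 and 1824 CPM of the laminin gene Lama1. Its endothelial markers had the highest median, 5.59, where the other 9 lines ranged from 0.06 to 2.33.

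**Figure D4:**
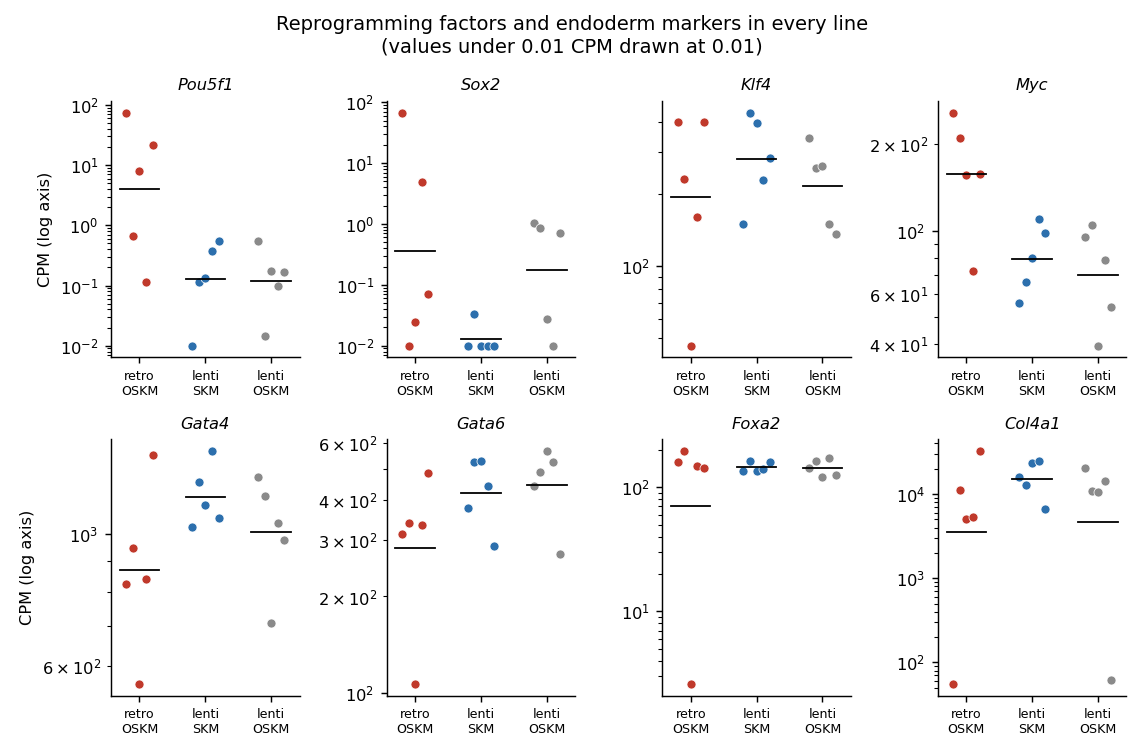
Level in CPM (log axis, values under 0.01 CPM drawn at 0.01) of the 4 reprogramming factors and of Gata4, Gata6, Foxa2 and Col4a1 in each line of the 3 groups; points are lines and bars are geometric means of 5 lines. Pou5f1 and Sox2 are spread over several orders of magnitude in retroviral OSKM lines, and single retroviral lines lie far below the rest for Foxa2 (2.60 CPM) and Col4a1 (55.3 CPM).

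No member of the marker lists was called by edgeR. Among 20 parietal endoderm genes 17 had a log2 fold change below 0 and 3 above, with a median of -0.58 beside 0.05 for all genes tested, and 4 (20%) had an unadjusted p under 0.05, all below 0, a share near the 15.4% of all genes. Serpinh1, the collagen chaperone gene, was at 3262, 3274, 2253, 3778 and 3589 CPM in retroviral OSKM lines, against 5330, 6648, 4878, 4543 and 4428 CPM in lentiviral SKM lines. The groups did not overlap for it, and the adjusted p was 0.187 by edgeR. Nid1, which encodes the basement membrane linker nidogen, averaged 1339 CPM in retroviral OSKM and 3248 CPM in lentiviral SKM lines. Line by line the median level of the list was 8.86, 9.47, 8.79, 9.64 and 10.49 in retroviral OSKM lines and 9.98 to 10.12 in lentiviral SKM lines, so the lentiviral SKM lines were close together and the retroviral lines lay on both sides of them. The list's median fold change was -0.40 without retroviral OSKM replicate 3 and -0.25 without replicates 1 and 3.

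Visceral endoderm, trophoblast and other lineage genes varied between lines. Of 15 tested visceral endoderm genes 5 were above 0 and 10 below, with a median log2 fold change of -0.27. That median was -0.76 without retroviral OSKM replicate 4 and changed sign, to 0.24, without lentiviral SKM replicate 1. The line medians of the list overlapped, at -0.09 to 4.15 log2 units for retroviral OSKM and -0.20 to 4.17 for lentiviral SKM. The next gene is thus a single member and does not stand for the list. Cubn, the cubilin receptor gene of absorptive endoderm, was at 37.4, 40.1, 17.0, 9.76 and 59.9 CPM in retroviral OSKM lines, against 1078, 117, 23.2, 556 and 181 CPM in lentiviral SKM lines, with lentiviral SKM replicate 3 inside the retroviral range (log2 fold change -3.58, SE 0.91, adjusted p = 0.128 by edgeR; DESeq2 called it). Krt7, a simple epithelial keratin used as a trophoblast marker, reached 7.76 and 12.5 CPM in retroviral OSKM replicates 3 and 5 while the highest lentiviral SKM line had 0.965 CPM. Of 9 tested endothelial markers 7 had a positive fold change (median 1.57, but -0.04 without retroviral OSKM replicate 3). Cdh5, the gene for VE-cadherin, went the other way without overlap, at 129 to 212 CPM in retroviral OSKM and 255 to 436 CPM in lentiviral SKM lines, with an adjusted p of 0.0883 by edgeR and 0.00436 by DESeq2, which called it. Xist, which coats and silences the inactive X chromosome, was at 0.377 to 5.54 CPM in retroviral OSKM lines and at 65.8 CPM in lentiviral SKM replicate 4, with 0.714 to 2.34 CPM in the other lentiviral SKM lines. Ddx3y, a Y-linked gene, was at 0 in 4 retroviral lines and 5.91 CPM in replicate 1, and at 48.3, 0.214, 42.2, 103 and 0 CPM in lentiviral SKM lines, so its level was not balanced between the groups.

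Lists of growth genes had mostly positive fold changes. Of 24 Myc targets of nucleolar and growth function 21 had a log2 fold change above 0 and 3 below, with a median of 0.37, beside 54.0% positive and a median of 0.05 for all genes. Of the 24, 8 (33.3%, beside 15.4% of all genes) had an unadjusted p under 0.05, all above 0. None was called by edgeR, and DESeq2 called 2, where it called 3.14% of all genes. Mrto4, which encodes a ribosome assembly factor, was at 59.5, 68.1, 70.7, 71.3 and 35.9 CPM in retroviral OSKM lines, against 32.0, 28.8, 28.3, 34.6 and 41.8 CPM in lentiviral SKM lines, with only retroviral OSKM replicate 5 inside the lentiviral SKM range (log2 fold change 0.89, SE 0.21, adjusted p = 0.102 by edgeR). Ncl, the nucleolin gene, averaged 1661 ± 521 CPM in retroviral OSKM and 1043 ± 174 CPM in lentiviral SKM lines (SD, n = 5 each), and Nolc1, another nucleolar protein gene, 305 ± 80.6 CPM in retroviral OSKM and 265 ± 105 CPM in lentiviral SKM lines. The list's median fold change stayed between 0.29 and 0.40 in the fits without 1 library. By line, its median level was 7.07 to 7.43 log2 units in retroviral OSKM and 6.74 to 7.30 in lentiviral SKM lines, and the ranges overlapped.

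Of 30 ribosomal protein genes 29 were above 0 and 1 below, with a median of 0.40, and 5 (16.7%) had an unadjusted p under 0.05, close to the 15.4% of all genes. Rps2 stood out among them in spread, at 1864, 1071, 3754, 2744 and 1951 CPM in retroviral OSKM lines, against 1117, 60.2, 71.7, 905 and 824 CPM in lentiviral SKM lines. Lentiviral SKM replicates 2 and 3, and 1 lentiviral OSKM line at 57.2 CPM, were far below the other lines. Rps2 is also a source of called pseudogenes, so its level is uncertain in the same way. This holds beyond Rps2, since ribosomal protein genes were the source of 18 of the 31 called pseudogenes and of 27.2% of those tested. The fold changes of the list as a whole carry that uncertainty. The median level of the list was 9.18 to 10.42 log2 units in retroviral OSKM and 9.10 to 9.94 in lentiviral SKM lines.

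Interferon response genes and matrix receptors had mostly negative fold changes. Of 13 tested interferon response genes 12 were below 0 and 1 above (median -0.61), where 7076 of all 15370 genes were below 0. Of the 13, 4 (30.8%, beside 15.4% of all genes) had an unadjusted p under 0.05 and none was called by edgeR or DESeq2. Stat2, which transmits the interferon signal, was at 15.5, 15.9, 12.1, 28.9 and 27.6 CPM in retroviral OSKM lines, against 34.8, 58.3, 29.8, 36.5 and 35.9 CPM in lentiviral SKM lines, without overlap (adjusted p = 0.175 by edgeR). Most other members were low, and Ifit2 stayed at or under 0.215 CPM in retroviral OSKM lines and at or under 0.480 CPM in lentiviral SKM lines except replicate 1 at 2.22 CPM. The list's median ran from -1.04 without retroviral OSKM replicate 4 to -0.26 without lentiviral SKM replicate 2, and by line the groups overlapped (0.81 to 2.43 log2 units in retroviral OSKM, 1.54 to 4.01 in lentiviral SKM). Of 19 integrin and matrix receptor genes 13 were below 0 (median -0.36, and 0.00 without lentiviral SKM replicate 1). Itga5, the fibronectin receptor chain, was at 183, 221, 127, 125 and 143 CPM in retroviral OSKM lines, against 333, 242, 293, 305 and 308 CPM in lentiviral SKM lines, without overlap (log2 fold change -0.88, SE 0.19, adjusted p = 0.0941 by edgeR).

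Stress and metabolic genes were spread over both sides. Ddit3, the gene of the stress transcription factor CHOP, was at 195, 79.2, 51.2, 107 and 70.8 CPM in retroviral OSKM lines, against 23.6, 55.1, 34.2, 40.1 and 35.5 CPM in lentiviral SKM lines (a difference of 1.43 log2 units, SE 0.35, adjusted p = 0.118 by edgeR). DESeq2 called it. In its list of 21 stress genes 12 were above 0. Of the 21, 6 (28.6%, beside 15.4% of all genes) had an unadjusted p under 0.05, 5 above 0 and 1 below. The median of that list was 0.17, and -0.01 without retroviral OSKM replicate 2. Eno1, a glycolytic enolase gene, was at 553, 515, 1370, 438 and 634 CPM in retroviral OSKM lines, against 219, 250, 256, 352 and 372 CPM in lentiviral SKM lines, without overlap (adjusted p = 0.118 by edgeR; DESeq2 called it), in a list of 23 with 16 above 0. The median of 0.32 rested on retroviral OSKM replicate 3, the highest line for Eno1: it was 0.03 without it and -0.04 without replicates 1 and 3. Of 23 cholesterol synthesis genes 17 were below 0 (median -0.24), 15 of 20 p53 response genes were above 0 (median 0.31) and 15 of 22 cell cycle genes below 0 (median -0.12), none of them called by edgeR. The cholesterol median was 0.04 without lentiviral SKM replicate 1, the p53 median 0.09 without retroviral OSKM replicate 2, and the cell cycle median -0.02 without retroviral OSKM replicate 1 and 0.02 without replicates 1 and 3. Among 25 genes linked to the silencing of retroviral vectors 12 were above 0 and 13 below (median -0.05, and 0.09 without lentiviral SKM replicate 4). Dnmt3b, a DNA methyltransferase gene, was at 97.6, 210, 456, 182 and 330 CPM in retroviral OSKM lines, against 148, 89.0, 84.9, 142 and 96.5 CPM in lentiviral SKM lines, with retroviral OSKM replicate 1 inside the lentiviral SKM range (adjusted p = 0.182 by edgeR).

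**Figure D5:**
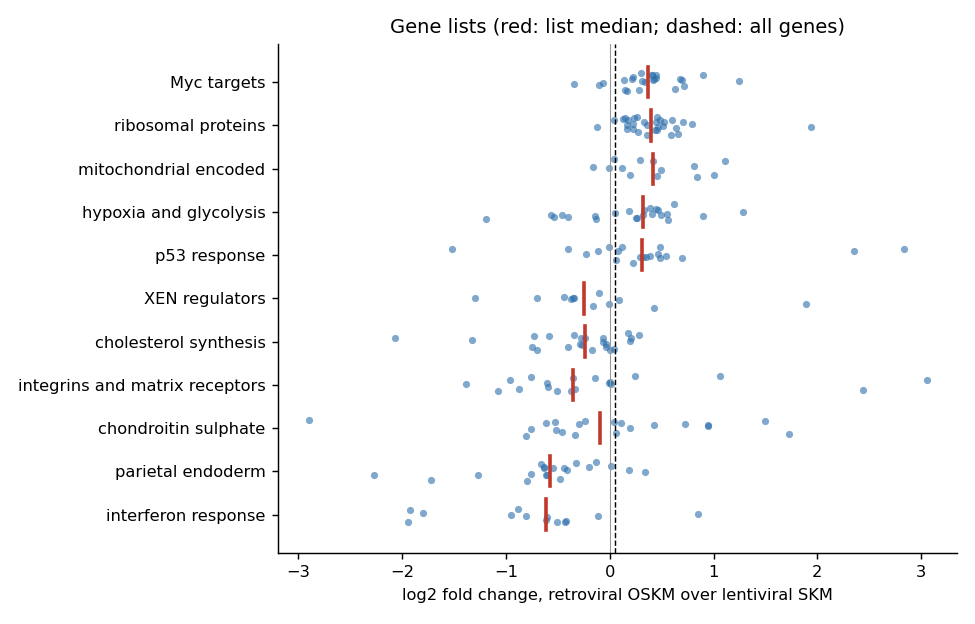
Log2 fold change of retroviral OSKM over lentiviral SKM lines (horizontal) for the tested members of 11 gene lists (points), with the list median in red and the median of all genes, 0.05, as a dashed line. Myc targets and ribosomal protein genes lie mostly above 0, and parietal endoderm and interferon response genes mostly below.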

How the data were processed

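PolyA RNA was sequenced with a stranded Illumina kit, per the labels' protocols. The authors deposited whole-number read counts per Ensembl gene, in 1 table for the retroviral and 1 for the lentiviral lines. The submitters' processing notes name HTSeq 0.11.2, HISAT2 2.1.0, SAMtools 1.9, Trimmomatic 0.39 and FastQC 0.11.7, and the build mm10. No source used here gives the annotation, the strand setting or the treatment of reads with several alignments, so overlapping and antisense genes are uncertain. The 5 summary rows were left out. Unaligned reads took 3.55% to 12.1% and reads without a unique alignment 3.95% to 7.35% of a library of the 10.

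The 10 libraries were fitted with edgeR 4.0.16 in R 4.3.3: TMM scaling, filterByExpr (minimum count 10), quasi-likelihood F test, Benjamini-Hochberg threshold 0.05. Printed levels are CPM with TMM factors over 15 libraries, and a standard error is a log2 fold change over the root of its F. Symbols and positions came from GENCODE M21 (42548 of 43432 identifiers). Near-identical transcripts were searched with BLAST+ 2.17.0, and a source is the best-scoring protein-coding gene with a symbol that is not a clone or pseudogene name. Alternatives included DESeq2 1.42.0 and limma 3.58.1 voom. The test was checked on simulated counts. These were drawn independently for each gene, so the check covers neither reads shared between copies nor single outlying lines. Same-numbered libraries were not paired by the labels.

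The libraries, the 32 gene lists and the tests were chosen with earlier results of these data known. Named genes were the 4 factors, the 15 largest rises and falls among called genes that had a name other than a clone's and averaged 1 or more log2 CPM, up to 4 called members per list or else the tested member with the smallest p, 13 fixed markers, and the 5 called pseudogenes or clone names with the smallest p. Source genes, further copies and list examples were chosen after their values were seen.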

Additional observations from a re-analysis of the deposited data

Results flagged for a closer look

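Within groups of 5 lines, a line was marked when its gap to the nearest other line exceeded Dixon's 95% critical share of the group's range. This marked 19 of 178 groups of values. The rate of about 1 in 20 by chance is for independent values with a normal spread. The values here were partly chosen for their size and share the same lines, so no excess over chance can be read from the count. Where all other lines were at 0, as for Sox2, Ddx3y and Gm29667, any count was marked. The marked Sox2 and Gm29667 values were under the level of 3 counts. 

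In retroviral OSKM replicate 3, Gata6 was at 107 CPM (other retroviral lines 314 to 484), Foxa2 at 2.60 CPM (142 to 195), Dab2 at 233 CPM (779 to 1154) and Serpinh1 at 2253 CPM (3262 to 3778). The same line had 2052 CPM of the Gapdh copy Gm13394 (818 to 1057) and 0.0486 CPM of Gm29667, another Gapdh copy, where the others were at 0.

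In retroviral OSKM replicate 1 the fibroblast markers had a median of 2.58 log2 units (-0.96 to -0.23 in the others) and the gut endoderm markers one of -0.36 (-1 to -0.82), and Ddx3y was at 5.91 CPM with 0 in the others. In retroviral OSKM replicate 5, Mrto4 was at 35.9 CPM (59.5 to 71.3) and Rbm3 at 253 CPM (345 to 385).

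In lentiviral SKM replicate 1, Rpsa-ps9 was at 10.6 CPM (18.8 to 21.7), Rpl14-ps1 at 103 CPM (152 to 177), Ftl1-ps1 at 42.3 CPM (26.6 to 30.3), Ifit2 at 2.22 CPM (0.181 to 0.480) and the neural median at -0.55 (-1 to -0.93). Xist was at 65.8 CPM in lentiviral SKM replicate 4 (0.714 to 2.34), the p53 target gene Aen at 52.8 CPM in replicate 3 (69.9 to 78.3), and Sox2 at 0.0329 CPM in replicate 2 with 0 in the others.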

How the results depend on the processing

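The count of 43 genes (16 higher, 27 lower) was 617 with DESeq2 (306 and 311), 182 with voom and sample quality weights (88 and 94), 145 in a fit of all 15 libraries (65 and 80), 22 without a filter on low counts (7 and 15), 4 over protein-coding genes only (2 and 2), and 9 without retroviral OSKM replicates 1 and 3 (2 and 7). The last 2 were chosen after seeing the data. With voom it was 44, with robust edgeR 43, with RLE scaling 41, with upper quartile scaling 36, with at least 1 CPM in 5 libraries 45, and with lentiviral SKM libraries thinned to the retroviral depth 42, and 38, 42, 41, 35, 36 and 40 of the 43 genes stayed called in these, in that order. Without 1 library it ran from 13 to 62 (4 to 30 higher, 9 to 32 lower).

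The labels do not say that replicate numbers pair the lines, and same-numbered libraries deviated together with correlations of 0.26, -0.04, 0.01, 0.04 and -0.07. With the replicate block the count was 5 (1 and 4). Only retroviral OSKM replicate 1 correlated best with its own number. For replicates 2 to 5 another lentiviral SKM library correlated better, at 0.13, 0.03, 0.09 and 0.17.

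Called members of the gene lists, 2 in the report (Vcan and Stk3), were 16 with DESeq2, 9 with voom and quality weights and 5 in the fit of all libraries. They were 1 with voom and without a filter, and 0 with the replicate block, over protein-coding genes and without retroviral OSKM replicates 1 and 3. Without 1 library they were 0 to 4. The 32 lists held 611 matched entries, some of them not tested. Over all genes, edgeR called 0.28% and DESeq2 3.14%. The same shares of the list members were not taken, so no excess in the lists can be read from these counts. The level of XEN regulators above pluripotency genes was 7.56 log2 units in retroviral OSKM and 8.79 in lentiviral SKM lines. With a mean over each list in place of the median it was 5.22 in retroviral OSKM and 5.58 in lentiviral SKM lines (7.33 for XEN regulators alone in lentiviral SKM lines, where the median was 8.48), and with a pseudocount of 1 it was 8.07 in lentiviral SKM lines. Of the named genes given with a fold change, the Hox gene Hoxc8 changed sign, at -0.71 without retroviral OSKM replicates 1 and 3 where it was 2.41 and not called. The causes were not tested. The retroviral libraries were shallower, so genes near 3 counts are measured less precisely there.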

Other observations

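Among lists not described above, 11 of 13 mitochondrially encoded genes had a log2 fold change above 0 (median 0.41, and 0.20 without retroviral OSKM replicate 4, none called by edgeR). Of these mt-Cytb, a subunit gene of respiratory complex III, was at 4724, 3034, 2974, 4319 and 1858 CPM in retroviral OSKM lines, against 2398, 1940, 1527, 1258 and 1397 CPM in lentiviral SKM lines. Of 29 imprinted genes 18 were above 0 (median 0.17, and 0.00 without retroviral OSKM replicate 1) and 1 had an unadjusted p under 0.05. That one was Gnas, a signalling gene with several imprinted promoters, at 9.88 to 16.7 CPM in retroviral OSKM and 20.5 to 34.0 CPM in lentiviral SKM lines, without overlap (adjusted p = 0.114 by edgeR's quasi-likelihood test; DESeq2 called it). Of 17 genes of the FGF-ERK response 13 were above 0 (median 0.20, and 0.04 without retroviral OSKM replicate 2 or 0.63 without lentiviral SKM replicate 1), among them the transcription factor gene Etv4 at 35.2, 89.1, 77.9, 70.0 and 16.7 CPM in retroviral OSKM lines, against 45.2, 15.2, 18.7, 30.2 and 12.9 CPM in lentiviral SKM lines, with overlapping groups.

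Pseudogenes took 0.936% to 1.88% of the gene counts in retroviral OSKM libraries and 0.883% to 1.47% in lentiviral SKM libraries. Over the 1077 tested, 523 had a log2 fold change above 0 and 554 below, with a median of -0.03.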
